A study of Homo sapiens with 8 samples.

Results

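Chromatin accessibility was examined at 37 of the 129536 peaks of an Omni-ATAC-seq table, namely all peaks that overlap the RefSeq body of MSH4 on chromosome 1 or of LOC124904135 on chromosome 17, or the 50 kb on either side of each gene. The MSH4 window held 23 peaks and the LOC124904135 window held 14. Both genes were selected on this same comparison, because a peak over each was among the most strongly lowered of the series, so fold changes and calls of these 37 peaks are a description and carry no test here. Omni-ATAC-seq uses a transposase to insert sequencing adapters into open DNA of nuclei, so that the count in a peak follows how accessible the region is. The cells were HEK293, a human embryonic kidney line, carrying eGFP-YAP, a green fluorescent fusion of the transcriptional coactivator YAP. Sample titles name only HEK293, while eGFP-YAP is given as the genotype and in the series description. Vehicle-treated cells (4 libraries) were compared with cells kept for 1 h in 200 mM sorbitol (4 libraries). Sorbitol makes the medium hyperosmotic and shrinks cells. The library names mark vehicle with an earlier time point than the 1 h of sorbitol, and no treatment time is stated for vehicle. Time may therefore differ between the groups along with sorbitol. The design cannot separate them, and an effect of time was not tested. The series description states that cells were serum-starved for 1 h before sorbitol. The labels do not say whether the 4 libraries of a group came from separate cultures, so the spread between them may be technical.

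MSH4 encodes a MutS homolog that works with its partner MSH5 in meiosis, where the dimer stabilises recombination intermediates on the way to crossovers; unlike the mismatch repair protein MSH6 it is not known for correcting replication errors. LOC124904135 is annotated as a small nuclear RNA gene. It lies in a row of similar genes that begins with RNU2-1, the gene of the U2 small nuclear RNA, which as part of the U2 particle pairs with the branch site of introns during splicing. Human U2 genes are known to form a tandem array of near-identical repeats on chromosome 17. They are transcribed by RNA polymerase II from promoters bound by the SNAPc complex, and their transcripts are processed by the Integrator complex.

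Vehicle libraries held 14757015 to 19831471 counts in peaks and sorbitol libraries 11522266 to 14355727. Every vehicle library was thus deeper than every sorbitol library, so depth in peaks went along with treatment. Levels are given as normalised CPM, the counts of a peak scaled to a common library size after each library total was adjusted by its TMM factor (the trimmed mean of M-values). Differences are log2 fold changes of sorbitol over vehicle with their standard errors, and a peak is called lower or higher where the edgeR quasi-likelihood test over 129487 peaks gave a Benjamini-Hochberg adjusted p under 0.05. Of all tested peaks, 13.1% were called lower and 16.0% higher. All 37 peaks passed the filter on low counts. Vehicle 4 and sorbitol 4 lay at opposite ends of the second principal component of all peaks, with scores of -61.7 and 66.3 against -35.4 to 21.4 in the other 6 libraries. Without this pair of libraries the leading peaks had log2 fold changes of -1.83 at MSH4 and -1.84 at LOC124904135, and the chromosome 17 window kept its count of 12 lower peaks.

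The peak that lost accessibility at MSH4 lay over the start of the gene. MSH4 runs on the plus strand of chr1:75796882-75913242 (GRCh38), and the peak at chr1:75796232-75797926 reached from 650 bp before its start to 1044 bp after it. The 250 bases before the start are shown because the falling peak covers all of them. They are taken from RefSeq (GRCh38.p14, plus strand, chr1:75796632-75796881), with capitals at matches to 3 searched motifs.

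MSH4 upstream: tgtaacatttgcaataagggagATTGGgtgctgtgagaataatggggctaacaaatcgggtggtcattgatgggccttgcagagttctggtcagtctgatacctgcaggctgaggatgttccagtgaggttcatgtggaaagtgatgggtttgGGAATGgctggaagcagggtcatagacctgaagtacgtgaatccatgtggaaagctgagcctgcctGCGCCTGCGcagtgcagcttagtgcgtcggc

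The capitals mark, from left to right, the reverse complement of CCAAT, the TEAD-type motif GGAATG and the NRF1-like motif GCGCNTGCG. Matches were searched on both strands in the 250 bases before the start of all 35116 RefSeq promoters. The NRF1-like match lay 31 bp before the MSH4 start and was found in 6.54% of promoters; the TEAD-type match lay at 97 bp (11.9% of promoters) and the CCAAT match at 228 bp (32.0%). None of the other 6 motifs had a match in this window, namely TATAAA (10.7% of promoters), GGGCGG (42.6%), TGANTCA (6.57%), TGACGTCA (1.65%), CACGTG (6.34%) and ATGCAAAT (1.63%). None of these motifs overlapped another in the MSH4 window. GC content of the 250 bases was 52.0%, against a median of 58.0% and quartiles of 46.4% and 68.0% over all promoters. The window before the RABGGTB start of the same table also held the NRF1-like motif, 48 bp before that start on the opposite strand, and none of the other 8. A match of letters is not evidence that a factor binds there.

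At the MSH4 start, vehicle libraries 1 to 4 measured 36.1, 40.1, 41.9 and 39.9 normalised CPM, and the sorbitol libraries measured 9.75, 11.7, 12.0 and 13.3. Every sorbitol library was below every vehicle library, and the mean went from 39.5 ± 2.43 to 11.7 ± 1.48 (SD, n = 4), 29.6% of the vehicle level. The log2 fold change was -1.75 (SE 0.10). Ordered by p-value this was peak 3 of the table, and ordered by fold change it was the 16th lowest. These are the values by which the gene was chosen. The peak held 21.8 ± 0.691% of all counts in the MSH4 window in vehicle and 7.84 ± 0.668% after sorbitol (SD, n = 4), a ratio within each library that needs no scaling between libraries.

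The nearest gene to the left, RABGGTB, encodes the beta subunit of Rab geranylgeranyl transferase, which attaches lipid anchors to Rab GTPases. Its body ends 1142 bp before the MSH4 peak, but the peaks at its start lie farther off, and a gap of 9531 bp separates them from the MSH4 peak. The peak over the RABGGTB start, chr1:75785626-75786701, measured 50.3, 53.4, 51.0 and 51.0 in vehicle and 39.7, 42.3, 40.8 and 46.0 after sorbitol. These groups did not overlap, and the means were 51.4 ± 1.34 and 42.2 ± 2.72 with a log2 fold change of -0.28 (SE 0.08). The outer RABGGTB peak, chr1:75784624-75785451, went from 36.7 ± 1.62 to 31.1 ± 2.04, with a log2 fold change of -0.24 (SE 0.08). Both RABGGTB peaks were called lower with TMM scaling, and both calls were lost under 3 other scalings, where the log2 fold changes were -0.32 to -0.10 and -0.29 to -0.07. In the same libraries the MSH4 peak went from 44.8 ± 2.00% of the summed RABGGTB peaks to 15.9 ± 1.26%. In vehicle the MSH4 peak was thus of the order of either RABGGTB peak, and after sorbitol it was well under both.

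**Figure D1:**
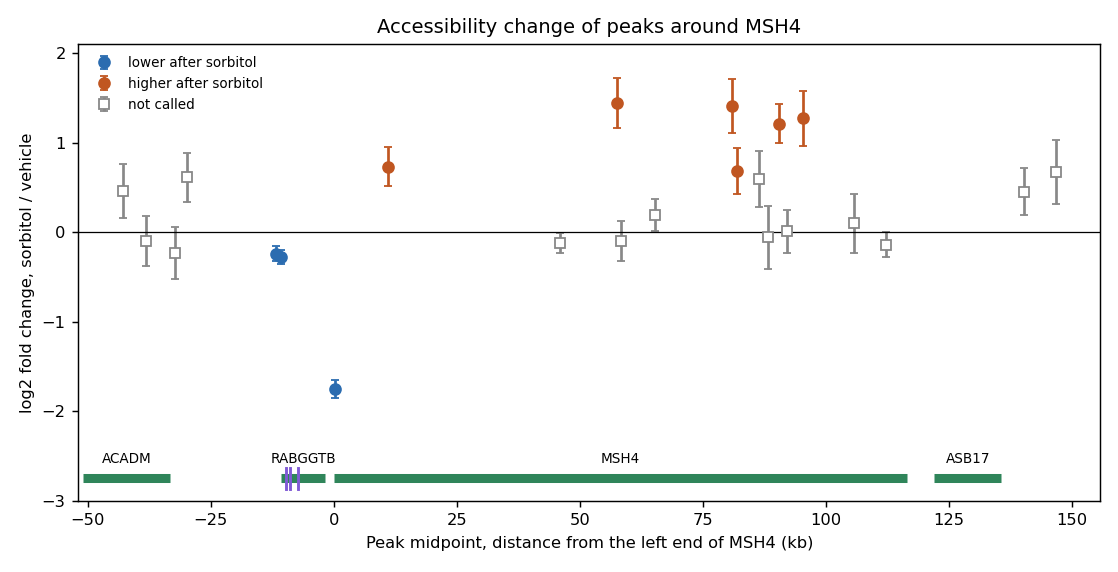
Log2 fold change of sorbitol over vehicle (vertical axis, bars are standard errors, 4 libraries a group) for the 23 peaks of the MSH4 window against the distance of the peak midpoint from the left end of MSH4 in kb. Green bars are protein-coding genes and purple ticks are the 3 SNORD45 genes; the peak at the MSH4 start (-1.75) stands alone below the RABGGTB peaks (-0.24 and -0.28), and the 6 higher peaks all lie inside the MSH4 body.

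RABGGTB hosts 3 small nucleolar RNA genes in this stretch, SNORD45C, SNORD45A and SNORD45B, of the box C/D class that guides ribose methylation of ribosomal RNA. They were the only small RNA genes among the 7 RefSeq genes of the MSH4 window, and no microRNA entry fell in it. The number of small RNA genes under any of the 23 peaks was 0. SNORD45C began 371 bp to the right of the peak over the RABGGTB start, SNORD45A 1188 bp and SNORD45B 2776 bp. Seen from the MSH4 peak they ended 9083, 8260 and 6685 bp to its left. The falling MSH4 peak therefore had no annotated small RNA gene under it.

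Inside the MSH4 body, beyond the peak at its start, 14 peaks were measured, and 6 were called higher, 0 lower and 8 neither; the median log2 fold change was 0.39, against 0.07 over all peaks inside genes. The 6 higher peaks were weak, with mean counts of 20.1 to 42.1 per library. The largest difference was at chr1:75854330-75854605, where the level went from 0.935 ± 0.170 to 2.56 ± 0.572, a log2 fold change of 1.44 (SE 0.28). Next came chr1:75877689-75877888 at 1.41 (SE 0.30), with levels of 0.877 ± 0.372 and 2.35 ± 0.317. The peak at chr1:75892159-75892381 had 1.27 (SE 0.31), with levels of 0.836 ± 0.263 and 2.07 ± 0.536.

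The strongest of the 6 by level was chr1:75887028-75887614, at 1.86 ± 0.569 in vehicle and 4.27 ± 0.619 after sorbitol, with a log2 fold change of 1.21 (SE 0.22). The nearest peak to the right of the MSH4 start, chr1:75807740-75808140, lay 9814 bp away and changed from 2.18 ± 0.519 to 3.61 ± 0.112, a log2 fold change of 0.73 (SE 0.22); with TMM factors from contig peaks its call was lost and 4 peaks of the window were higher. The smallest difference, at chr1:75878543-75878804, was 0.68 (SE 0.26) with levels of 1.53 ± 0.475 and 2.44 ± 0.265, and its call was lost in 10 of 18 other settings. In all 6, which were picked by their call, the vehicle and sorbitol libraries did not overlap. The groups were also apart in 12356 of the 55072 tested peaks inside genes with a mean count under 100. Of all peaks inside genes with a mean count under 100, 19.2% were called higher (median log2 fold change 0.10); in the MSH4 body 6 of the 12 peaks of that strength were called higher (median 0.63). Both sets of values come from the comparison that chose the gene, so nothing is read from the difference.

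Better covered peaks of the body moved little. The strongest, chr1:75842427-75843065, measured 14.7, 16.4, 17.6 and 14.4 in vehicle and 12.8, 14.7, 15.7 and 14.8 after sorbitol. The groups overlapped, and the log2 fold change was -0.12 (SE 0.11) without a call. A peak near the far end, chr1:75908644-75909257, had 8.12 ± 0.876 and 7.37 ± 0.643, a log2 fold change of -0.14 (SE 0.14). Beside the end of ACADM, which encodes the medium-chain acyl-CoA dehydrogenase of fatty acid oxidation, the peak chr1:75764434-75764635 had 1.66 ± 0.615 and 1.40 ± 0.0782 and was not called (-0.23, SE 0.29). ASB17, on the other side of MSH4, had no peak over it.

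Over the whole MSH4 window 3 of 23 peaks were called lower (1 under those 3 scalings), 6 higher and 14 neither. Over all tested peaks 13.1% were called lower and 16.0% higher. The median log2 fold change of the window was 0.19, against 0.01 over all tested peaks. At the rims of the window no peak was called: those just inside had 0.46 (SE 0.30) on the left and 0.67 (SE 0.36) on the right, and those just outside had 0.01 (SE 0.16) and 0.21 (SE 0.11).

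The chromosome 17 window gave another picture, in which nearly every peak was lower. LOC124904135 spans 191 bp at chr17:43239921-43240111, and the leading peak, chr17:43239551-43240139, covers the whole gene with 370 bp to its left and 28 bp to its right. The vehicle libraries measured 64.1, 67.6, 61.4 and 53.4 normalised CPM and the sorbitol libraries 18.8, 17.8, 17.7 and 16.7. The lowest vehicle library was far above the highest sorbitol library, and the means were 61.6 ± 6.07 and 17.7 ± 0.871 (SD, n = 4), 28.8% of the vehicle level. The log2 fold change of -1.80 (SE 0.09) was the 12th lowest of the table and its p-value the smallest, and by these values the gene was chosen. The strand of the small nuclear RNA genes is not given in the gene table used here, so sides are named as left and right on the chromosome and not as upstream or downstream.

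A smaller peak lay 174 bp to the left of it, at chr17:43239086-43239377, with no gene under it. It measured 16.4, 16.4, 13.2 and 13.1 in vehicle and 6.00, 4.20, 5.69 and 4.88 after sorbitol. This peak too was lower in every sorbitol library than in any vehicle library, and its log2 fold change was -1.51 (SE 0.13).

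LOC124904135 was followed and preceded by further small nuclear RNA genes. From RNU2-1 rightwards 13 such genes stood in a row; apart from RNU2-1 they carry only LOC numbers and the type snRNA in the RefSeq table. They are called U2 array copies here from their position, their near-equal lengths (188 to 192 bp) and their spacing, of which 5 of 12 intervals were 6131 to 6161 bp; their sequences were not compared. The intervals between neighbouring starts ranged from 1259 to 14804 bp. Because copies of this array are near-identical, reads may have been assigned among them with error, and values of a single copy are uncertain.

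Of the 14 peaks in the window, 11 overlapped 1 copy each, and 11 of 11 were called lower. Their log2 fold changes had a median of -1.04 and ranged from -1.80 to -0.78. Summed over these 11 peaks, which does not depend on how reads were divided among them, the vehicle libraries measured 1179, 1206, 1058 and 994 normalised CPM and the sorbitol libraries 558, 548, 514 and 529.7. The sum went from 1109 ± 100.4 to 537 ± 19.4, a log2 fold change of -1.05 (SE 0.07). The groups were wide apart, and sorbitol libraries varied less among themselves than vehicle libraries did. Counts over the array may include reads from copies that the reference genome lacks, since the number of repeats varies between human genomes. The sum may also have gained or lost reads through wrong assignment to or from U2 copies outside the window. Neither was tested.

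RNU2-1 itself, under chr17:43233082-43234691, measured 84.4, 83.3, 73.2 and 68.8 in vehicle and 38.3, 36.0, 32.6 and 33.4 after sorbitol. Its means were 77.4 ± 7.65 and 35.1 ± 2.62, with a log2 fold change of -1.14 (SE 0.08). LOC124904136, the neighbour of LOC124904135 at a distance of 1259 bp between starts, lay under chr17:43240752-43241562 and had 75.9 ± 10.1 and 32.0 ± 1.92, a log2 fold change of -1.25 (SE 0.09). These values are smaller changes than that of LOC124904135, which fell from 5.55 ± 0.194% of the summed array in vehicle to 3.30 ± 0.126% after sorbitol.

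The copy with the highest level, per peak and per kb of peak, was LOC124904138, whose peak chr17:43251515-43252393 went from 185 ± 18.2 to 94.5 ± 2.90, a log2 fold change of -0.97 (SE 0.08). The smallest change of the array was at LOC124904137, chr17:43244817-43246743, from 134 ± 9.88 to 78.1 ± 4.96 (-0.78, SE 0.08), which left 58.2% of the vehicle level. The lowest vehicle level per peak was at LOC124904140, chr17:43270911-43271672, from 48.1 ± 6.76 to 18.3 ± 2.02 (-1.40, SE 0.10). Its close neighbour LOC124904146, chr17:43272238-43273937, went from 119.6 ± 10.5 to 48.0 ± 3.91 (-1.32, SE 0.08). All copies of the window were thus left with 28.8% to 58.2% of their vehicle level.

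The remaining 4 copies had similar changes. LOC124904139, under chr17:43265283-43267134, had -1.04 (SE 0.08), with levels of 81.1 ± 8.94 and 39.5 ± 2.18. LOC124904141, under chr17:43277623-43278880, had -0.88 (SE 0.08), with 112 ± 6.18 and 60.8 ± 4.38. LOC124904142, under chr17:43283248-43285026, had -0.92 (SE 0.08), with 128 ± 8.38 and 67.6 ± 2.30. LOC124904145, whose peak chr17:43289365-43290901 reaches past the rim of the window, had -0.92 (SE 0.09), with 86.5 ± 12.4 and 45.8 ± 4.20. In each of these the sorbitol libraries lay below the vehicle libraries without overlap.

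**Figure D2:**
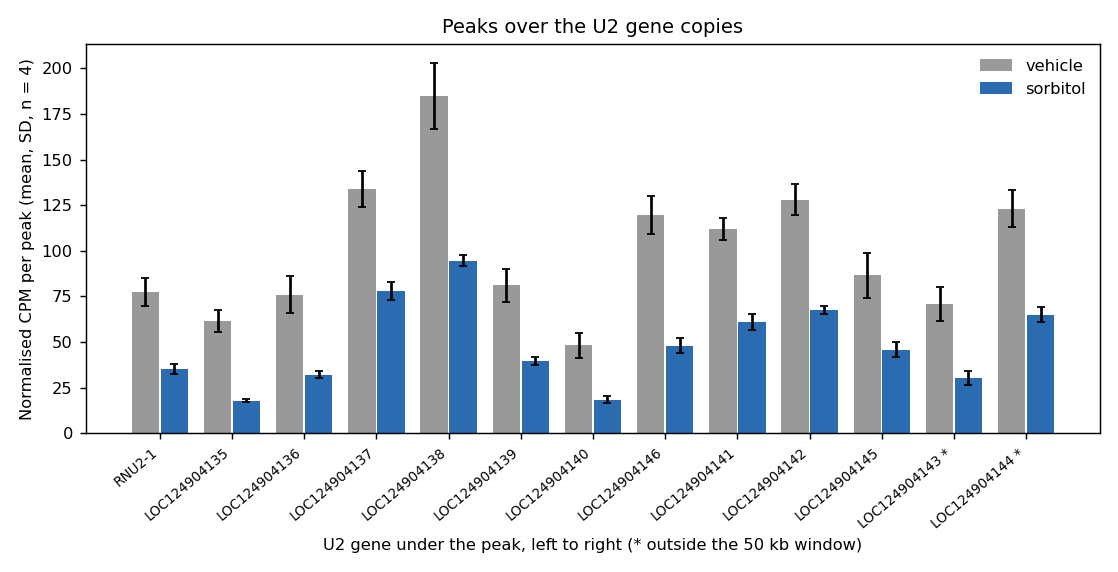
Normalised CPM per peak (vertical axis; bars are means and error bars SD of 4 libraries) over each U2 array copy from left to right, with vehicle in grey and sorbitol in blue. Every copy is lower after sorbitol, from 61.6 to 17.7 at LOC124904135 and from 185 to 94.5 at LOC124904138; copies with a star lie beyond the 50 kb window.

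Peaks of this window more than 1 kb from a copy moved less. The peak chr17:43231571-43232722, 302 bp before the start of the protein-coding gene CCDC200, which runs on the minus strand, measured 31.0, 28.1, 23.8 and 30.2 in vehicle and 26.0, 24.1, 25.4 and 21.0 after sorbitol. These groups overlapped, and the log2 fold change of -0.23 (SE 0.09) was not called, though 3 of 19 other settings called it lower. The peak chr17:43257750-43258291 lay in the longest gap of the array, 5731 bp from the copy on its left and 8342 bp from the one on its right. It measured 5.51, 4.88, 4.75 and 6.64 in vehicle and 4.83, 6.69, 6.11 and 3.99 after sorbitol, and its log2 fold change was -0.01 (SE 0.17). Both uncalled peaks of the window were thus those with no array copy within 1 kb. The peak beside CCDC200 was only just past this limit, as it ended at 43232722 and RNU2-1 starts at 43233790. No peak overlapped TMEM106A, CCDC200 or the part of NBR1 inside the window, and no microRNA entry fell in it.

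**Figure D3:**
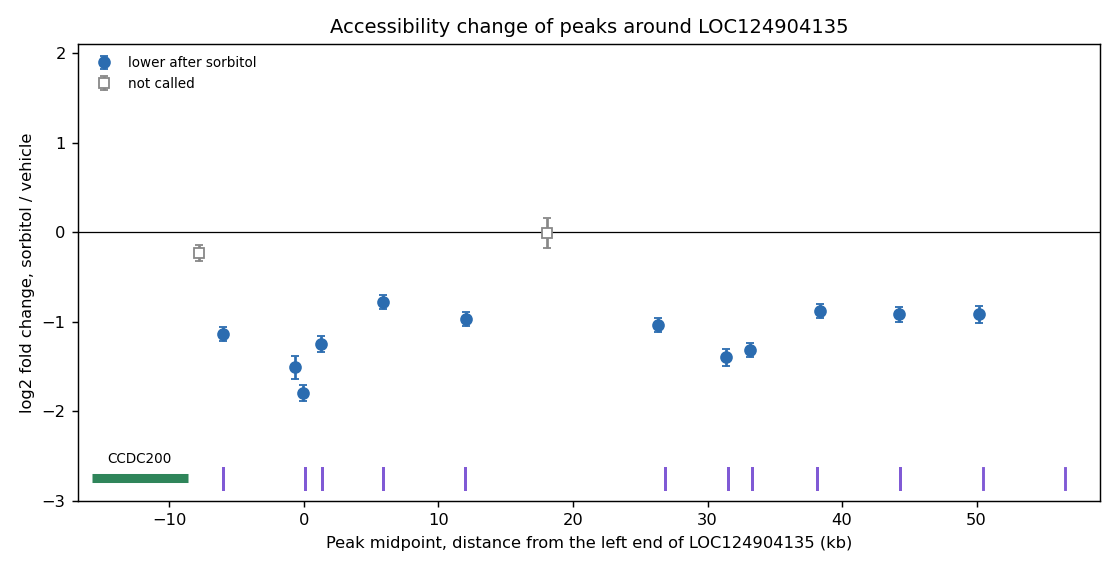
Log2 fold change of sorbitol over vehicle (vertical axis, bars are standard errors, 4 libraries a group) for the 14 peaks of the LOC124904135 window against the distance of the peak midpoint from the left end of LOC124904135 in kb; the peakless left part of the window is not drawn. Purple ticks are U2 array copies and the green bar is CCDC200; the 12 lower peaks sit on or beside a copy, and the peak between copies lies at -0.01.

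In this window 12 of 14 peaks were called lower, 0 higher and 2 neither, and the log2 fold changes had a median of -1.0. In both windows together the libraries of the groups did not overlap in 21 of 37 peaks, against 26.3% of all tested peaks. Peaks within 1 kb of a gene end, which include 13 of the 14 in the chromosome 17 window, were more often lower than other peaks in the series at large: 32.8% of 25203 such peaks were called lower, and their median log2 fold change was -0.17. Just outside the window, the next peak to the right, chr17:43295548-43295893, lay near another copy and was lower (-1.33, SE 0.12), and the next to the left, chr17:43169736-43171522 at an end of NBR1 and of other annotated genes, was lower by less (-0.63, SE 0.09). Farther along the array, the peaks over LOC124904143 (-1.23, SE 0.09) and LOC124904144 (-0.92, SE 0.08) were lower too.

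**Figure D4:**
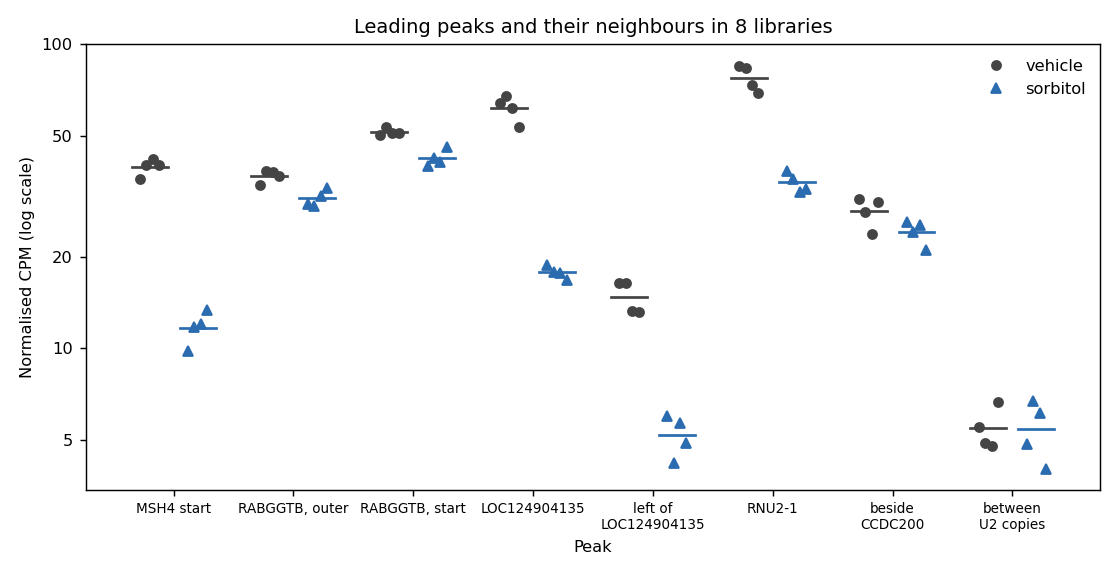
Normalised CPM (log axis) of 8 peaks in each of the 8 libraries, with vehicle as circles, sorbitol as triangles and group means as lines. The groups are far apart at the MSH4 start, at LOC124904135, at the peak to its left and at RNU2-1; they differ little at the RABGGTB peaks and overlap beside CCDC200 and between the U2 array copies.

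Other genes of the same families were given for comparison. RNU2-2, a U2 gene on chromosome 11 that shares its peak (chr11:62840194-62842327) with an end of WDR74, went from 196 ± 13.0 to 105 ± 3.96, a log2 fold change of -0.89 (SE 0.07). Of 69 RNU2 pseudogenes, 9 had a peak within 1 kb of an end; 4 of these peaks were lower, 1 was higher and 4 were not called, with a median of -0.25, against 32.8% lower over all gene-boundary peaks. All 4 lower peaks also lay at an end of another gene (COX16, LINC00910, ANP32E and LOC105374852). The higher peak, at RNU2-3P, was very weak, at 0.572 ± 0.265 in vehicle and 1.41 ± 0.227 after sorbitol (1.30, SE 0.36). Peaks at U1 genes (RNU1) were lower in 4 of 4 cases, with a median of -1.18 and a range of -1.33 to -1.03. Peaks at RNU4 and RNU5 genes, which encode the U4 and U5 RNAs, were lower in 8 of 8 cases, with a median of -0.86 and a range of -1.51 to -0.65. Lower values were therefore also seen at spliceosomal RNA genes outside the array. Sequences of these families were not compared, and whether reads were assigned with error among similar copies was not tested.

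The genes of the U2 particle and of branch site recognition, a list of 25 with 39 gene-boundary peaks, had 29 peaks lower, 0 higher and 10 not called, with a median of -0.49. The largest change of the list was at a peak shared by SNRPD2, which encodes a core Sm protein, and QPCTL (chr19:45693264-45693665), from 9.12 ± 1.09 to 4.20 ± 0.218 (-1.12, SE 0.15). A stronger peak of the same genes (chr19:45691714-45692991) went from 58.0 ± 9.03 to 35.0 ± 1.47 (-0.73, SE 0.09). At SF3B1, which encodes the subunit that holds the branch site, the peak had 29.7 ± 2.43 and 28.1 ± 0.741 and was not called (-0.08, SE 0.09). Genes of the machinery that transcribes and processes small nuclear RNA (SNAPc, Integrator and partners), a list of 24 with 32 peaks, had 24 lower, 0 higher and 8 not called, with a median of -0.40. There the largest change was at INTS1, an Integrator subunit (chr7:1503500-1503819), from 4.07 ± 0.479 to 1.95 ± 0.758 (-1.07, SE 0.22). A stronger INTS1 peak (chr7:1503903-1504828) went from 17.9 ± 1.26 to 13.3 ± 1.93 (-0.43, SE 0.11). Over all gene-boundary peaks 32.8% were lower, with a median of -0.17. That background was not matched to the lists for peak strength, so nothing is read from the difference.

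For MSH4, the comparison list held 25 other genes of meiotic recombination and mismatch repair, of which 13 had a gene-boundary peak. Their 15 peaks were lower in 7 cases, higher in 0 and not called in 8, and the median log2 fold change was -0.20. Over all gene-boundary peaks 32.8% were lower, and the median of -0.17 was close to that of the list. MSH5, the partner of MSH4, had a peak that went from 49.2 ± 3.34 to 36.9 ± 3.61 (-0.41, SE 0.08). The largest change of the list was at a peak shared by HORMAD1, which acts on meiotic chromosome axes, and GOLPH3L (chr1:150696987-150697719), from 52.2 ± 6.13 to 35.5 ± 2.02 (-0.56, SE 0.09). The mismatch repair gene MSH6 (-0.06, SE 0.08) was not called. Each of these is a smaller change than the -1.75 of the MSH4 start; the difference was not tested, since MSH4 was chosen for its value.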

How the data were processed

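ATAC-seq peak counts of 4 vehicle and 4 sorbitol libraries were used. The authors deposited 1 table of raw counts per peak, all whole numbers, per the file header and values. Per the submitters' processing notes, which give no role or order, the tools included Trim Galore 0.6.10, BWA 0.7.17, SAMtools 1.22, Picard, MACS2 2.2.9.1 and bedtools, with build hg38. Whether reads or fragments were counted, and how reads with several matching positions were treated, is not given in the sources used here; the latter bears on every value of the U2 array. Start positions were taken as counted from 0, an assumption, and are printed counted from 1.

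Counts were fitted with edgeR 4.0.16 in R 4.3.3: filterByExpr (minimum count 10, minimum total 15), TMM factors, the quasi-likelihood test with treatment as the only term, and Benjamini-Hochberg adjustment over 129487 peaks at 0.05. Standard errors were derived from the log2 fold change and the F statistic. Genes came from the RefSeq table of GRCh38.p14. The edgeR fit was tested on simulated data. The leading peak of a window is the one with the smallest p-value. Named were the called peaks, those within 1 kb of a protein-coding or small RNA gene end, and the neighbours of the leading peak; for each gene list, the called peak with the largest change. The uncalled peaks inside the MSH4 body, the peaks of SF3B1, MSH5 and MSH6 and the stronger peaks of SNRPD2 and INTS1 were chosen after their values were seen. Some single genes of the lists are not reported here. The windows and lists were chosen with earlier results of these data known. Replicate numbers did not pair the libraries, and the effect of other settings is given at the end. The MSH4 upstream bases were matched by symbol in the RefSeq promoter table. PCR reads without molecular identifiers are not independent molecules.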

Additional observations from a re-analysis of the deposited data

How the results depend on the processing

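The leading peaks were called lower under all 19 alternative fits of each, with log2 fold changes of -1.84 to -1.58 at MSH4 and -1.87 to -1.62 at LOC124904135. No called peak of either window changed direction under them, but the uncalled peak between U2 array copies, at -0.01, ranged from -0.13 to 0.22. Named peaks outside the windows were not followed across these fits. In 1 fit, libraries of a group that share a number within their library names were summed, a code that the labels do not explain. It gave log2 fold changes of -1.76 at MSH4 and -1.81 at LOC124904135. Whether such libraries came from the same culture is not known. With a replicate block the values were -1.76 and -1.79; same-numbered libraries did not deviate together (correlations of -0.129 to 0.00648). The block ended the call of the MSH4 body peak chr1:75878543-75878804 (0.69), and with any 1 library left out there were 2 to 3 lower peaks in the MSH4 window and 12 to 13 in the LOC124904135 window. Higher peaks in the MSH4 window numbered 5 to 8 when libraries were left out, and 7 without vehicle 4 and sorbitol 4 together, which was added once the data had been seen.

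The count of lower peaks in the MSH4 window was 1 in place of 3 with a loess offset, with TMM factors from gene-boundary peaks and with TMM factors from contig peaks, where both RABGGTB peaks lost their call; log2 fold changes there were -0.10, -0.11 and -0.32 at the RABGGTB start and -0.08, -0.07 and -0.29 at the outer peak. The outer peak lost its call in 9 of 19 settings. The gene-boundary factors moved the median of all peaks by 0.17. With a mean of at least 50 counts, 0 higher peaks were counted in the MSH4 window, because the 6 weak peaks were not tested. The change in share of window counts in the leading peak was -13.9 percentage points at MSH4 and -9.47 with 100 kb on each side; at LOC124904135 it was -2.22, -4.50 with 25 kb and -1.79 with 100 kb, as the window takes in fewer or more array peaks. The weak MSH4 body peaks are limited by depth, with mean counts of 20.1 to 42.1.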

Other observations

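The change at U2 array copies differed with their spacing, a pattern noticed in the data and given as a description. The 4 copies whose neighbour starts within 2 kb (LOC124904135, LOC124904136, LOC124904140 and LOC124904146) had log2 fold changes of -1.80 to -1.25, with a median of -1.36. LOC124904135 was chosen for its value, and without it the close copies ranged from -1.40 to -1.25. The other 7 copies of the window ranged from -1.14 to -0.78, with a median of -0.92, so the ranges did not overlap. Across the 11 copies, LOC124904135 included, the log2 fold change had a Spearman correlation of 0.72 with the vehicle level, 0.61 with peak width and -0.10 with the vehicle level per kb. Among the 7 copies without such a close neighbour these correlations were 0.58, 0.14 and 0.47. The points share libraries and near-identical sequence, and no p is given. Beyond the window, LOC124904143 had no neighbour within 2 kb and a log2 fold change of -1.23, which lies outside the range of those 7.

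Peak shape also varied along the array. Peaks over copies were 589 to 1927 bp wide and reached 314 to 1350 bp to the left of the gene and 28 to 879 bp to its right. The LOC124904135 peak was the narrowest of the 11 and had the shortest reach to the right.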
